A study of Mus musculus with 311 samples.

Results

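Pck1, G6pc and Cdkn1a were followed across the livers of an intercross of mice, with every array and every probe naming one of the 3 genes. Pck1 encodes phosphoenolpyruvate carboxykinase, which commits carbon to glucose synthesis. G6pc encodes the catalytic subunit of glucose-6-phosphatase, which frees glucose for release into the blood. Cdkn1a encodes p21, an inhibitor of cyclin-dependent kinases. They are 3 of 11387 genes with a kept probe, and each is named by 1 probe, so agreement between probes of a gene could not be measured. Pck1 was measured on 310 of 311 arrays and the other two on all 311.

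The animals were F2 mice of both sexes bred from C57BL/6J and C3H/HeJ, with the ApoE null background on both sides, and all received the Western diet between 8 and 24 weeks of age. Loss of ApoE and the diet were therefore shared by every liver, and no untreated or ApoE-carrying group was measured. Each array held liver RNA of 1 animal in Cy3 and a pool of equal parts of all the samples' RNA in Cy5, so the arrays formed 1 group of unreplicated animals, told apart in the labels by an F2 number between 2 and 359. A value is the log10 ratio of an animal to that pool, printed here as a ratio, where 1 is the level of the pool. Such a ratio carries no absolute level, so neither the level of the 3 genes relative to each other nor the presence of hepatocyte RNA could be read from it, and in a whole liver fewer cells of a type and less RNA per cell cannot be told apart.

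Arrays were also described in 2 sets by the Eif2s3y probe, which measures a gene on the Y chromosome. A total of 155 arrays lay above a log10 ratio of -0.5, the lowest of them at -0.219, and are called Eif2s3y-high. The other 156, called Eif2s3y-low, lay at or below it, the highest of them at -0.875. The sets were made by a measured probe and not by a label, so they are described and were not tested against each other.

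In the fasted liver, glucagon acts through cAMP and the factor CREB, and glucocorticoids act through their receptor, to raise transcription of Pck1 and G6pc, while insulin lowers both through FOXO1. Both genes belong to the hepatocyte, where amino acid breakdown supplies much of the carbon for glucose. Cdkn1a is a direct target of p53 and is also raised by several forms of stress independently of p53. It is known for holding hepatocytes out of the cell cycle.

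The bases upstream of the RefSeq transcript starts of the 3 genes are shown because hormone-driven factors and p53 are known to act through such sequences. The windows hold 250 bases, all on the plus strand of GRCm38.p6 and credited to RefSeq, at chr2:173152823-173153072 for Pck1, at chr11:101367466-101367715 for G6pc and at chr17:29090729-29090978 for the upstream of both listed starts of Cdkn1a. Capitals mark TNACGTNA in Pck1 and G6pc, TATAAA in G6pc, and a p53 response element with up to 1 mismatch outside its fixed C and G letters in Cdkn1a.
Pck1 upstream: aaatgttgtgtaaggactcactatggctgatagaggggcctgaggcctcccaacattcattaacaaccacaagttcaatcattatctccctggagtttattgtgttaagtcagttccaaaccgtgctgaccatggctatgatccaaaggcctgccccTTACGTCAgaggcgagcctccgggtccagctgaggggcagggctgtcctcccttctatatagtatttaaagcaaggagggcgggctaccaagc
G6pc upstream: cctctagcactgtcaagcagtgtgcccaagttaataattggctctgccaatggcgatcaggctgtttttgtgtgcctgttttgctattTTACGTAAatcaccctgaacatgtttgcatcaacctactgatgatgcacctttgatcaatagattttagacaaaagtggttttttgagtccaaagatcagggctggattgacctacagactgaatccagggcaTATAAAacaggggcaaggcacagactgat
Cdkn1a upstream: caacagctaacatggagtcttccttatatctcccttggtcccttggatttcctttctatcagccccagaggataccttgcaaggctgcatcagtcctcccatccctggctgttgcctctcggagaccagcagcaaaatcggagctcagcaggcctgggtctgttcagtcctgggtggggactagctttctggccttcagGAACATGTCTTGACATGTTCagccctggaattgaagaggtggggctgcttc
The motifs were chosen after the sequences were seen and were searched on both strands without overlap between them. TNACGTNA, which includes forms of the cAMP response element, stood at -93 to -86 in Pck1 as TTACGTCA and at -162 to -155 in G6pc as TTACGTAA, counted from the transcript start. It occurs in 3.83% of 32851 mouse promoter windows of this length. TATAAA stood at -29 to -24 in G6pc and occurs in 12.4% of the windows. The p53 response element of the upstream Cdkn1a start, at -51 to -32, has so close a match in 0.0578% of the windows, 19 in all, and the window before the downstream start of Cdkn1a held none of the 3 motifs. A match describes these letters only.

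All 3 genes varied widely between livers. Pck1 ranged between 0.321 and 2.86 times the pool with a median of 0.972 (n = 310). G6pc ranged between 0.222 and 2.56 times the pool with a median of 0.952 (n = 311), and Cdkn1a between 0.364 and 8.01 times with a median of 0.997 (n = 311). The distance between the 5th and the 95th percentile of arrays was 3.64-fold for Pck1, 4.17-fold for G6pc and 3.85-fold for Cdkn1a. The SD of the log10 ratio was 2.54 times the median SD of all genes for Pck1 (95% interval from resampled arrays 2.34 to 2.76), which placed it 668th of 11387 genes. It was 2.85 times for G6pc (2.62 to 3.08, 501st) and 2.58 times for Cdkn1a (2.35 to 2.89, 644th). No value of the 3 genes lay at a limit of the deposited scale.

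Livers far from the pool were found on both sides of it. Pck1 was at least 1.5-fold over the pool in 38 livers and at least 1.5-fold under it in 58. The counts were 41 over and 61 under for G6pc, and 51 over and 37 under for Cdkn1a. Over all arrays, low livers were the more numerous for the gluconeogenic pair and high livers for Cdkn1a.

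High and low livers in Pck1 and G6pc were found in both Eif2s3y sets, but the excess of low livers lay in different sets. Pck1 was at least 1.5-fold over the pool in 16 and under it in 35 Eif2s3y-high livers. In Eif2s3y-low livers the counts for Pck1 were 22 over and 23 under. For G6pc they were 23 over and 23 under in Eif2s3y-high, and 18 over and 38 under in Eif2s3y-low livers. The Eif2s3y-high arrays had a median Pck1 ratio of 1.01 (0.321 to 2.46) and the Eif2s3y-low arrays one of 0.958 (0.368 to 2.86). For G6pc the medians were 1.03 (0.222 to 2.56) in the Eif2s3y-high and 0.899 (0.243 to 2.47) in the Eif2s3y-low arrays. The medians of Cdkn1a stood further apart, at 1.14 (0.451 to 8.01) in Eif2s3y-high and 0.862 (0.364 to 2.63) in Eif2s3y-low arrays. Of livers at least 1.5-fold over the pool in Cdkn1a, 39 were Eif2s3y-high and 12 Eif2s3y-low, and of those at least 1.5-fold under the pool, 12 were Eif2s3y-high and 25 Eif2s3y-low. The ranges overlapped for all 3 genes.

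**Figure D1:**
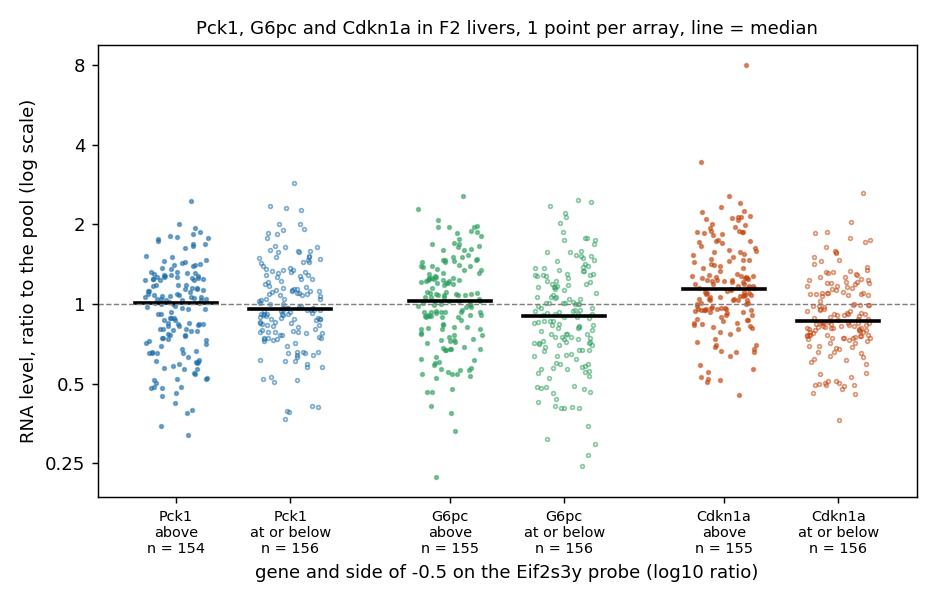
RNA level of Pck1, G6pc and Cdkn1a as a ratio to the pool (log axis) in each F2 liver, 1 point per array, for Eif2s3y-high arrays (filled, above a log10 ratio of -0.5) and Eif2s3y-low arrays (open, at or below it); black lines are medians. The points of both sets overlap for each gene, the medians of Cdkn1a are 1.14 (Eif2s3y-high) and 0.862 (Eif2s3y-low), and a single liver stands at 8.01 times the pool.

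Pck1 and G6pc moved together from liver to liver. Of 310 livers, 224 (72.3%) had both on the same side of the pool, 16 had both at least 1.5-fold over it, 27 had both at least 1.5-fold under it, and 4 had them at least 1.5-fold off in opposite directions, 1 with Pck1 high and 3 with G6pc high. A liver with a 2-fold higher Pck1 had a 1.58-fold higher G6pc on average (95% interval 1.47 to 1.69). Pearson r was 0.587 (95% interval 0.509 to 0.656) and Spearman rho 0.567, each with a permutation p of 1e-05, the smallest that 100000 two-sided permutations can give, and r was 0.582 without the 2 arrays farthest from the median of Pck1. It was 0.539 within the Eif2s3y-high and 0.671 within the Eif2s3y-low arrays.

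Cdkn1a had no relation to either of them that passed the threshold over all probes. It was on the same side of the pool as Pck1 in 146 of 310 livers (47.1%) and as G6pc in 155 of 311 (49.8%). Its r with Pck1 was -0.121 (-0.229 to -0.00984; rho -0.117; permutation p = 0.033 for r and 0.04 for rho), and over all probes the adjusted p from limma with Benjamini-Hochberg adjustment was 0.0825, short of 0.05. Without the 2 arrays farthest from the median of Pck1 this r was -0.104, and it was -0.130 in Eif2s3y-high and -0.0705 in Eif2s3y-low arrays. With 5 principal components of the arrays removed it turned to 0.146. The r of Cdkn1a with G6pc was 0.0306 (-0.0809 to 0.141; rho 0.0248; permutation p = 0.592 for r and 0.663 for rho; adjusted p over all probes 0.756), was 0.0139 without the 2 arrays farthest from the median of G6pc, and changed sign to -0.0218 in Eif2s3y-high and -0.0145 in Eif2s3y-low arrays. These 3 relations were the pairs computed among the 3 genes.

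**Figure D2:**
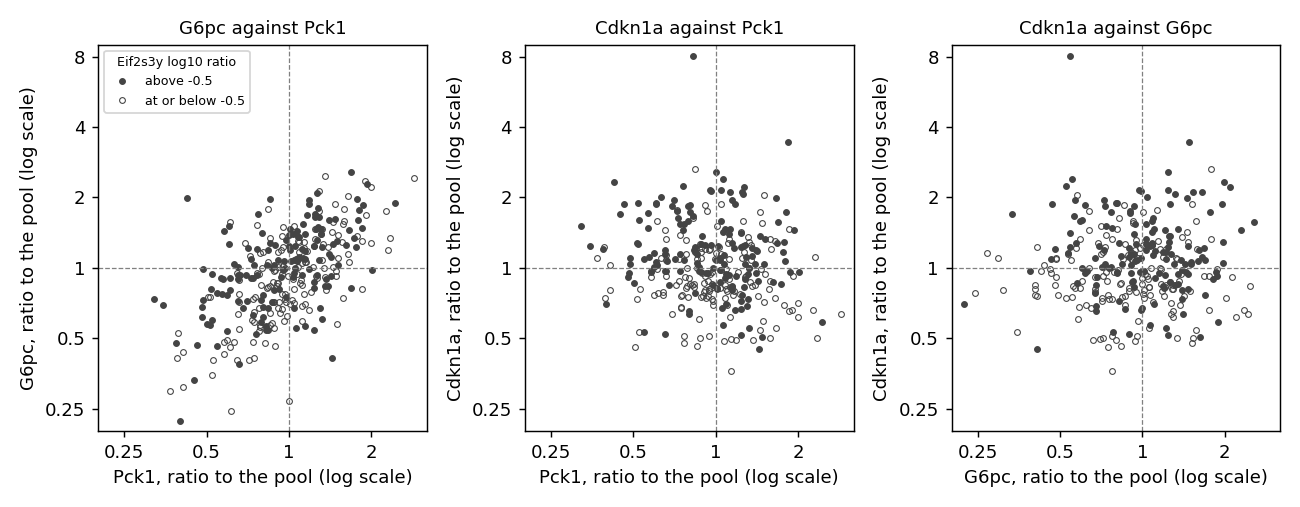
Each pair of the 3 genes across F2 livers, both axes as ratios to the pool on log scales, 1 point per array, filled where the Eif2s3y log10 ratio was above -0.5 and open where it was at or below. G6pc and Pck1 run along a diagonal (r = 0.587), while Cdkn1a spreads to both sides of the pool along the Pck1 axis (r = -0.121) and the G6pc axis (r = 0.0306).

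Single livers at the ends of the ranges show these relations in values, with exceptions. The liver of F2 332 had the highest Pck1, at 2.86 times the pool, with G6pc at 2.43, Tat at 1.80 and Cdkn1a at 0.634 times. The liver of F2 334 had the lowest Pck1, 0.321 times the pool, with Tat at 0.329 and G6pc at 0.734 times. Thus the lowest Pck1 came with a low Tat and a G6pc nearer to the pool. The liver of F2 34 had the lowest G6pc, 0.222 times the pool, with Pck1 at 0.398 and Cdkn1a at 0.701. The liver of F2 257 had the highest G6pc, 2.56 times, with Pck1 at 1.69 and Cdkn1a at 1.57. Its Igfbp1, an insulin-repressed secreted binding protein, was at 3.61 times. Among the exceptions, F2 49 had the second highest Pck1, 2.46 times, with Tat at only 1.10. F2 153, second lowest in Cdkn1a, had Pck1 at 1.44 and G6pc at 0.410.

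The highest Cdkn1a stood apart from all other livers. In the liver of F2 12 it was at 8.01 times the pool, against 3.46 times in the next, F2 347. F2 12 also had the p53 targets Phlda3 at 6.36, Psrc1 at 5.52 and Zmat3 at 2.20 times the pool, with Pck1 at 0.827 and G6pc at 0.543. Its array had the 8th largest SD over probes of the 311. The third highest Cdkn1a, 2.63 times in F2 359, came with Phlda3 at 0.781 and Psrc1 at 0.570 times, so a high Cdkn1a was not always found with high Phlda3 and Psrc1.

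Large parts of the liver's RNA moved with each gene. By a limma fit of every kept probe on the level of the gene, 4245 of 11386 genes (37.3%) followed Pck1 at an adjusted p under 0.05, of which 2225 (19.5%) rose and 2020 (17.7%) fell with it. Fewer followed G6pc, 2570 genes (22.6%), with 1260 (11.1%) up and 1310 (11.5%) down. Cdkn1a had 4582 followers (40.2%), 2131 (18.7%) up and 2451 (21.5%) down. With 311 arrays the threshold admits weak relations, and an absolute r of at least 0.3 was reached by 773 genes (6.79%) for Pck1, 150 (1.32%) for G6pc and 1058 (9.29%) for Cdkn1a. The median r over all genes was 0.0184 for Pck1, 0.00970 for G6pc and -0.0173 for Cdkn1a. Within the Eif2s3y-high arrays 28.1% of genes followed Pck1 (13.8% up, 14.3% down), 8.41% G6pc (4.12% up, 4.29% down) and 20.7% Cdkn1a (10.5% up, 10.2% down). Within the Eif2s3y-low arrays 22.6% followed Pck1 (10.9% up, 11.6% down), 9.92% G6pc (4.0% up, 5.92% down) and 18.7% Cdkn1a (10.2% up, 8.45% down). With 5 principal components of all arrays removed, the followers numbered 1161 for Pck1, 1033 for G6pc and 744 for Cdkn1a.

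The 2 genes most like Pck1 were both in the list of glucocorticoid targets. Tat, tyrosine aminotransferase and a classic glucocorticoid target, had the highest r of all genes. It ranged between 0.322 and 2.87 times the pool with a median of 0.897. Its r with Pck1 was 0.744 (0.689 to 0.790), a 1.66-fold higher Tat for a 2-fold higher Pck1 (1.58 to 1.75), and it was 0.763 in Eif2s3y-high and 0.728 in Eif2s3y-low arrays. Tsc22d3, the glucocorticoid-induced leucine zipper GILZ, ranged between 0.432 and 2.52 times the pool and had r = 0.634 (0.563 to 0.696). They were followed by the amino acid transporter Slc36a1 (r = 0.630), the kinase Pim3 (0.620), the rhythmic deadenylase Noct (0.596), Zdhhc1, G6pc itself, Crcp, the lysine-degrading Aass (0.571) and Gne (0.527). The lowest r belonged to the DNA repair nuclease Mre11a (-0.517), Ywhah (-0.502), Septin9 (-0.502), Ier5, Ppfibp1 and Fem1b. All of these passed the limma test at adjusted p under 0.05 over all probes. They were picked by r on the same arrays, and 37.3% of genes passed, so passing is no separate support. As Tat and Tsc22d3 ranked first and second for Pck1, r between Pck1 and G6pc was also taken with both as covariates, a choice made after seeing the data, and it was then 0.408.

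G6pc had the weaker neighbours. After Pck1 the highest r was that of Syp, synaptophysin, a vesicle protein, at 0.456 (0.363 to 0.540). Syp ranged only between 0.691 and 1.49 times the pool, and a 2-fold higher G6pc came with a 1.09-fold higher Syp (1.07 to 1.11). Angptl4, a fasting-induced inhibitor of lipoprotein lipase, had r = 0.452 (0.359 to 0.536) and ranged between 0.557 and 1.78 times the pool. Pim3, Tat, the clock repressor Cry1 (0.442), Tsc22d3, Slc37a4 (0.408), Noct and Nfil3 (0.404) completed the 10 highest. Slc37a4 is the transporter that carries glucose-6-phosphate to the glucose-6-phosphatase, and its r with Pck1 was 0.484. The lowest r were those of the basement membrane protein Nid1 (-0.413), Ppfibp1 (-0.411), the growth arrest gene Gadd45a (-0.395), the cyclin Ccnd1 (-0.394), UBE2T and Dynll1.

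The 3 genes most like Cdkn1a were all in the list of p53 targets. Phlda3, a p53-induced repressor of AKT, ranged between 0.397 and 6.36 times the pool with a median of 1.03. Its r with Cdkn1a was 0.708 (0.648 to 0.760), with a 1.56-fold higher Phlda3 for a 2-fold higher Cdkn1a (1.48 to 1.64). Psrc1 (r = 0.688, 0.624 to 0.742) and Zmat3 (0.664, 0.597 to 0.722), both p53 targets, came next. Without the liver of F2 12 the 3 values were 0.681 for Phlda3, 0.664 for Psrc1 and 0.646 for Zmat3. Phlda3 had r = 0.768 in Eif2s3y-high and 0.550 in Eif2s3y-low arrays, Psrc1 0.713 (high) and 0.589 (low), and Zmat3 0.616 (high) and 0.609 (low). Tubb2a, a tubulin (0.582), FAM110A, the growth factor Nrg1 (0.564), the kinase Dyrk3, Lrfn3, the protease St14 and Gria3 followed. The lowest r belonged to Nat8f1 (-0.547), Sh3yl1, Dgcr2, the uridine phosphorylase Upp2 (-0.535), Fn3k (-0.533) and the coagulation factor gene F7 (-0.526).

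**Figure D3:**
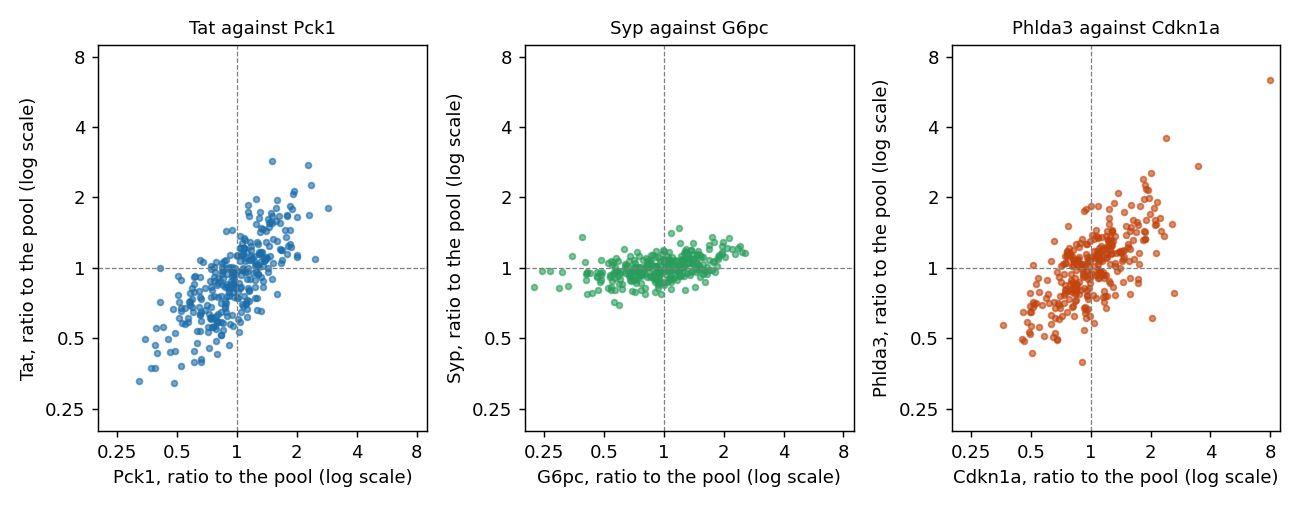
Tat against Pck1, Syp against G6pc and Phlda3 against Cdkn1a, the genes of highest Pearson r outside the 3, as ratios to the pool on log axes of equal range, 1 point per F2 liver. Tat and Phlda3 cover about the range of their partners (1.66-fold and 1.56-fold for a 2-fold change), Syp is nearly flat (1.09-fold), and F2 12 is the point at the upper right of the third panel.

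**Figure D4:**
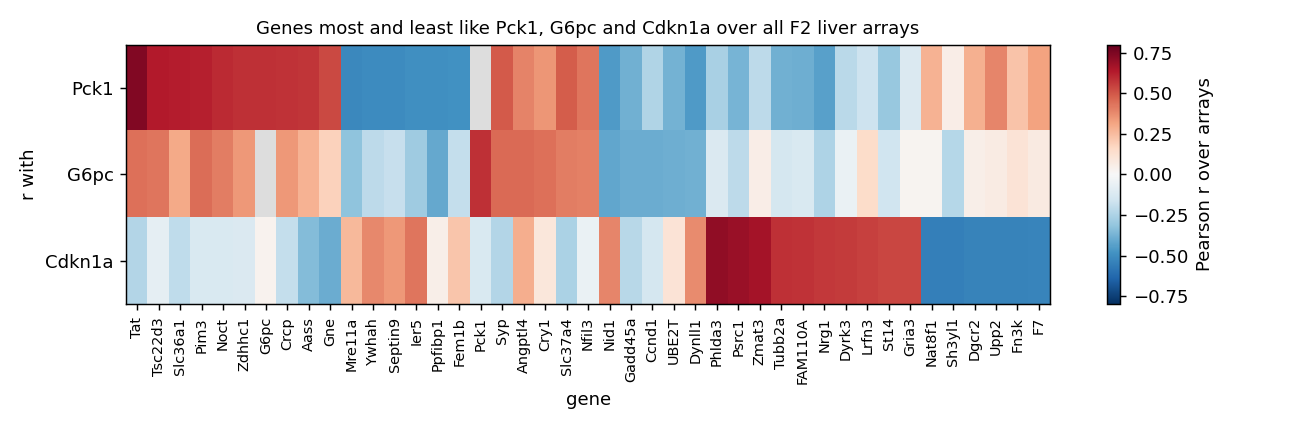
Pearson r over all arrays (colour) of the 10 genes most like and the 6 least like each of Pck1, G6pc and Cdkn1a with all 3 genes (rows), each gene shown once; grey marks a gene with itself. The genes most like Pck1 are red in the G6pc row in paler shades and mostly pale blue in the Cdkn1a row, and those most like Cdkn1a are blue or pale in the Pck1 row.

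Tat was the gene most like Pck1, and Pck1 the gene most like G6pc, within each Eif2s3y set too. In Eif2s3y-high arrays Tat, Slc36a1, Zdhhc1, Pim3 and Aass had the 5 highest r with Pck1, and in Eif2s3y-low arrays Tat, Tsc22d3, G6pc, Crcp and Noct. For G6pc the 5 were Pck1, Pim3, the cytochrome P450 gene Cyp4f15, Tsc22d3 and Tat in Eif2s3y-high, and Pck1, Syp, Pim3, Noct and Igfbp1 in Eif2s3y-low arrays. Igfbp1 had an r with G6pc of 0.287 in Eif2s3y-high and 0.525 in Eif2s3y-low arrays. For Cdkn1a the 5 were Phlda3, Psrc1, Zmat3, Gria3 and Dyrk3 in Eif2s3y-high arrays. In Eif2s3y-low arrays they were Col4a1, a basement membrane collagen gene, Zmat3, Psrc1, Phlda3 and Grhl1. Col4a1 had r = 0.462 in Eif2s3y-high and 0.624 in Eif2s3y-low arrays. These differences between the sets were not tested.

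The glucose pathway itself did not move as a block with Pck1. For comparison, 19.5% of all genes rose and 17.7% fell with Pck1, and 11.1% rose and 11.5% fell with G6pc. Of 22 tested genes of gluconeogenesis and glucose release other than the named one, 6 rose and 5 fell with Pck1 (median r 0.00453), and 5 rose and none fell with G6pc (median 0.114). With Pck1, 5 rose and 2 fell within each Eif2s3y set, where 14.3% (high) and 11.6% (low) of all genes fell. With G6pc, 4 rose within the Eif2s3y-high and 6 within the Eif2s3y-low arrays, and none fell. Of all genes 4.12% (high) and 4.0% (low) rose with G6pc. Beside G6pc, Slc37a4 and the aspartate aminotransferase Got1 (r = 0.507) rose with Pck1, and the glycolytic Gapdh fell (-0.242). Of 24 regulators of the fasting response, 13 rose and 3 fell with Pck1 (median 0.175), among them the insulin-restrained factor Foxo1 (0.481), Igfbp1 (0.437) and the glucocorticoid-induced factor Klf15 (0.395), and 7 rose with G6pc. The repressor Nr0b2, known as SHP, fell with Pck1 (-0.182). Of 22 glucocorticoid targets, 12 rose and 1 fell with Pck1 (median 0.218), and 9 rose and none fell with G6pc (median 0.101). With Cdkn1a 6 of 21 rose and 3 fell, where 18.7% of all genes rose and 21.5% fell. Within the Eif2s3y-high arrays 11 rose with Pck1, 6 with G6pc and 8 with Cdkn1a, and 2, 1 and 2 fell. Of all genes 13.8%, 4.12% and 10.5% rose there. Within the Eif2s3y-low arrays 11, 11 and 5 rose and none fell, where 10.9%, 4.0% and 10.2% of all genes rose.

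Enzymes of amino acid breakdown followed all 3 genes, up with Pck1 and G6pc and down with Cdkn1a. With Pck1, 18 of 19 rose and none fell (median r 0.316), led by Tat, Got1, the urea cycle enzyme Asl (0.490) and Cth (0.473), and only Bhmt (0.0501) did not pass. With G6pc, 11 rose and none fell (median 0.164), where 11.1% of all genes rose. With Cdkn1a, 17 fell and 1 rose (median -0.307), with the proline oxidase Prodh (-0.506), the urea cycle enzyme Otc (-0.504) and the histidine ammonia-lyase Hal (-0.467) lowest, and Bhmt the one that rose (0.156). With Pck1, 18 rose within the Eif2s3y-high arrays, where 13.8% of all genes rose, and 13 within the Eif2s3y-low arrays, where 10.9% did. With Cdkn1a, 12 fell within the Eif2s3y-high arrays (10.2% of all genes) and 11 within the Eif2s3y-low arrays (8.45%). None rose with Cdkn1a in either set, and all 19, Bhmt included, had a negative r in Eif2s3y-high arrays. The lists share genes, and Tat and Got1 each stand in more than one.

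Of 17 genes of insulin-induced glycolysis and lipogenesis, 7 fell and 2 rose with Pck1, where 17.7% of all genes fell and 19.5% rose. The fatty acid enzymes Acaca (-0.353) and Fasn (-0.295) were among those that fell. With G6pc 2 rose and 2 fell, where 11.1% of all genes rose and 11.5% fell. The clock genes split: 8 of 20 rose with Pck1, with Per1 (0.503) and Nfil3 highest, and 4 fell, with Nr1d1, known as REV-ERBalpha, lowest (-0.376). Nr1d1 also fell with G6pc (-0.330). With Cdkn1a, 9 clock genes fell and 3 rose, where 21.5% of all genes fell and 18.7% rose. The output factor Dbp was lowest (-0.463). The hour at which each liver was taken is not known here.

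**Figure D5:**
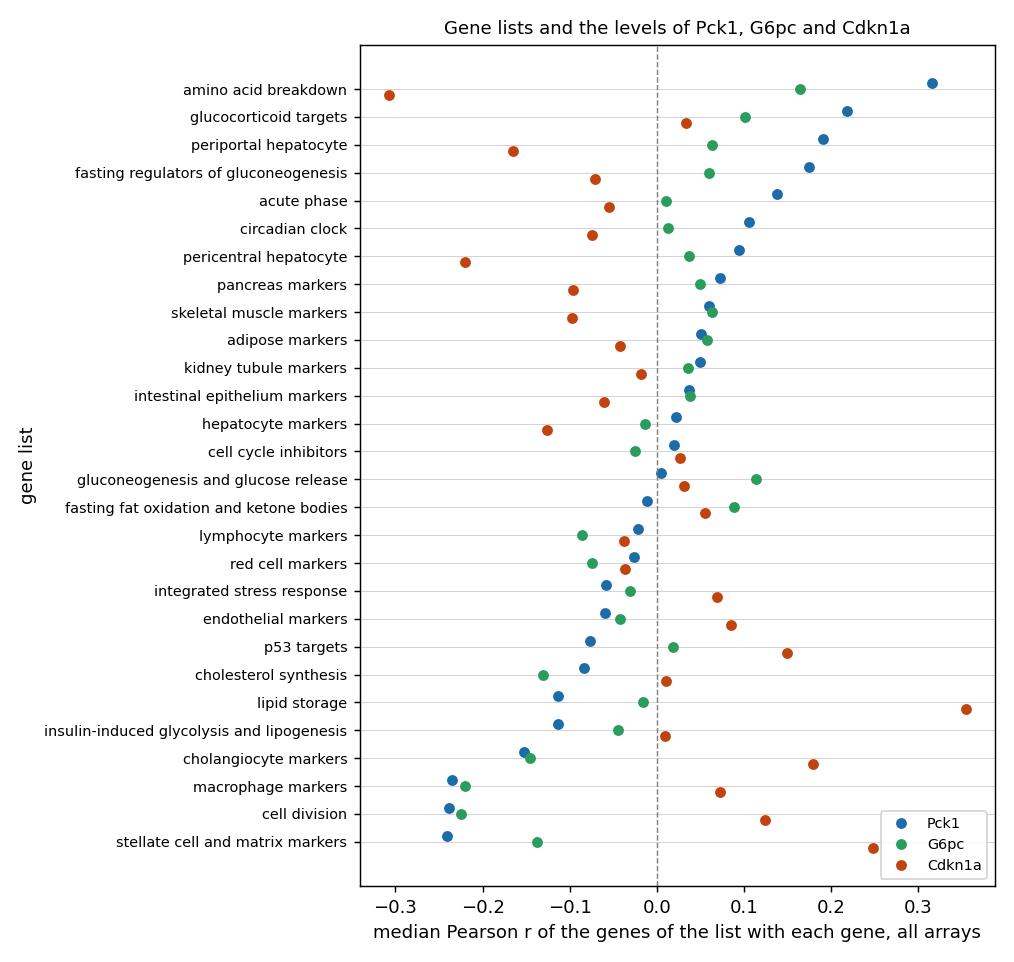
Median Pearson r over all arrays of the genes of each of 28 lists (rows) with Pck1 (blue), G6pc (green) and Cdkn1a (orange). Amino acid breakdown stands at 0.316 for Pck1 and -0.307 for Cdkn1a, and the stellate cell and matrix markers at -0.241 for Pck1 and 0.248 for Cdkn1a; medians over all genes are 0.0184, 0.00970 and -0.0173.

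Among 25 tested p53 targets other than Cdkn1a, 13 rose and 3 fell with it (median r 0.149, against -0.0173 over all genes). The shares of all genes were 18.7% up and 21.5% down. Plk2 (0.499) rose beside Phlda3, Psrc1 and Zmat3. The 3 that fell were the ribonucleotide reductase subunit Rrm2b (-0.277), Gadd45a (-0.222) and the sestrin Sesn1 (-0.150), so the targets did not all move one way. Within the Eif2s3y-high arrays, where 10.5% of all genes rose with Cdkn1a, 11 rose and none fell, and within the Eif2s3y-low arrays, where 10.2% rose, 9 rose and 2 fell. With Pck1, 6 of 26 rose and 11 fell (median -0.0765), where 19.5% of all genes rose and 17.7% fell.

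Cell division genes rose with Cdkn1a, the inhibitor of division, more often than they fell: 13 of 29 rose and 5 fell (median r 0.124), where 18.7% of all genes rose and 21.5% fell. The mitotic Cdc20 (0.334) and Ccnb2 (0.328) were among those that rose, and the thymidine kinase Tk1 (-0.392) had the lowest r. With Pck1 the same list had 19 that fell and 2 that rose (median -0.239), the centromere histone Cenpa (-0.429) and Cdc20 (-0.424) lowest, and with G6pc 18 fell and 1 rose (median -0.225), with Ccnd1 lowest. Of all genes 17.7% fell with Pck1 and 11.5% with G6pc over all arrays. Within the Eif2s3y-high arrays 16 of the list fell with Pck1 and 5 with G6pc, where 14.3% and 4.29% of all genes fell. Within the Eif2s3y-low arrays 18 fell with Pck1 and 16 with G6pc, where 11.6% and 5.92% of all genes fell.

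Of 10 lipid storage genes tested, 8 rose with Cdkn1a and 1 fell (median r 0.354), where 18.7% of all genes rose and 21.5% fell. Hilpda, an inhibitor of lipolysis, had r = 0.468 and the fatty acid carrier Fabp4 0.405. Cidea, a lipid droplet protein that enlarges droplets, spanned between 0.0281 and 10.7 times the pool, with r = 0.40, and stood at 4.88 times in F2 12. With Pck1, 5 lipid storage genes fell and none rose, where 17.7% of all genes fell. With G6pc 1 rose and 3 fell, where 11.1% of all genes rose and 11.5% fell.

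Markers of some other cells of the liver moved with the 3 genes as well. Over all genes 19.5% rose and 17.7% fell with Pck1, 11.1% and 11.5% with G6pc, and 18.7% and 21.5% with Cdkn1a. Of 12 lymphocyte markers 1 rose and 1 fell with Pck1, 3 fell with G6pc and 1 fell with Cdkn1a. Of 13 endothelial markers 4 fell with Pck1, 3 fell with G6pc, and 3 rose and 1 fell with Cdkn1a. Of 5 hepatocyte markers 1 rose with Pck1, 1 rose with G6pc and 2 fell with Cdkn1a. Of 13 stellate cell and matrix markers, 10 rose and none fell with Cdkn1a (median r 0.248; Pdgfrb 0.446, Timp1 0.409), while 10 fell with Pck1 and none rose (median -0.241; Lox -0.442), and 6 fell with G6pc. Of 19 macrophage markers, 15 fell and 1 rose with Pck1 (median -0.235) and 13 fell with G6pc (median -0.220). Within the Eif2s3y-high arrays 14 fell with Pck1 and 1 with G6pc (median -0.126), where 14.3% and 4.29% of all genes fell. Within the Eif2s3y-low arrays 14 fell with Pck1 and 8 with G6pc, where 11.6% and 5.92% of all genes fell. With Cdkn1a 6 rose and 4 fell over all arrays (median 0.0726), Itgax (0.338) and Trem2 (0.322) at one end and the Kupffer cell lectin Clec4f (-0.280) at the other. Within the Eif2s3y sets 9 rose and 1 fell in Eif2s3y-high arrays (median 0.196; 10.5% of all genes rose), and 13 rose and none fell in Eif2s3y-low arrays (median 0.314; 10.2% rose). Of 8 cholangiocyte markers 4 rose and 1 fell with Cdkn1a, Krt8, which hepatocytes also carry, highest (0.486), and 5 fell with Pck1. Of 14 pericentral hepatocyte markers 11 fell and 1 rose with Cdkn1a (median -0.220), and 5 fell within the Eif2s3y-high and 7 within the Eif2s3y-low arrays. Of 11 periportal markers 7 fell and 1 rose over all arrays (median -0.165), but 1 fell and 1 rose within the Eif2s3y-high and 2 fell and 1 rose within the Eif2s3y-low arrays, where 10.2% (high) and 8.45% (low) of all genes fell. The part of these cells in the relations of the 3 genes was not tested, and defining markers at 0 could not be recognised from ratios.

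Lists of markers of tissues outside the liver were counted in the same way. The shares of all genes were 19.5% up and 17.7% down with Pck1, 11.1% and 11.5% with G6pc, and 18.7% and 21.5% with Cdkn1a. Whether the counts of these small lists differ from those shares was not tested. Of 9 pancreas markers 1 fell with Cdkn1a, and of 11 skeletal muscle markers 1 rose with Pck1 and 1 fell with Cdkn1a. Of 15 kidney tubule markers 4 rose with Pck1, 3 rose with G6pc and 2 fell with Cdkn1a. Of 8 adipose markers 3 rose and 1 fell with G6pc, 1 rose and 1 fell with Pck1, and 1 rose and 2 fell with Cdkn1a. Of 10 markers of intestinal epithelium 2 rose and 1 fell with Pck1 and likewise with G6pc, and 1 rose and 2 fell with Cdkn1a. A marker of pancreas or muscle reached a log10 ratio of 1 on 12 arrays, and r of Pck1 with G6pc was 0.589 without them.

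Although Pck1 and G6pc moved together, many genes related unequally to them. A limma fit used the sum and the difference of the standardized levels. It found 3206 of 11385 genes (28.2%) with a nonzero difference at adjusted p under 0.05. The relation was more positive with Pck1 for 1664 (14.6%) and more positive with G6pc for 1542 (13.5%). The difference is signed, so a gene that fell with Pck1 and hardly followed G6pc counts towards G6pc. Tat differed most towards Pck1 (r 0.744 with Pck1 and 0.444 with G6pc, adjusted p = 2.38e-12), followed by Rabggta, Per1 (0.503 and 0.140, adjusted p = 1.48e-11), Slc36a1, Tgm1 and OAF. Gclc, the rate-limiting enzyme of glutathione synthesis, differed most towards G6pc (limma adjusted p = 1.79e-10). It fell with Pck1 (r = -0.415) and hardly followed G6pc (-0.0628). Next were Smap1, Denn2b, A4gnt (-0.244 with Pck1 and 0.113 with G6pc), Chrna2 (0.0153 and 0.354) and Arhgap23 (-0.266 and 0.0807). With 5 principal components removed, 221 genes passed.

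The lists were counted in the same signed sense, where 14.6% of all genes leaned to Pck1 and 13.5% to G6pc. Amino acid breakdown leaned to Pck1, with 13 of 19 genes past the test in that direction and none in the other. Acute phase genes did too, with 10 of 17 and none, among them Itih4 (r 0.310 with Pck1 and 0.0463 with G6pc) and the C-reactive protein gene Crp (0.279 and 0.116). Of 21 other genes of gluconeogenesis and glucose release, 9 leaned to G6pc and 1, Got1, to Pck1. Gapdh was the furthest of the 9 (-0.242 with Pck1 and 0.10 with G6pc). Genes of insulin-induced glycolysis and lipogenesis leaned to G6pc in 8 of 17 and to Pck1 in 1. Their median r was -0.114 with Pck1 and -0.0442 with G6pc. Those of fat oxidation and ketone bodies leaned to G6pc in 7 of 18 and to Pck1 in 1. Their median r was -0.0112 with Pck1 and 0.0881 with G6pc.

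The F2 number, the one label that differed between arrays, was followed by 23.4% of genes at adjusted p under 0.05, and by none of the 3. The slopes per 100 numbers on the log10 scale were 0.00200 for Pck1 (limma adjusted p = 0.904), 0.00588 for G6pc (0.723) and 0.00721 for Cdkn1a (0.616). Livers of neighbouring numbers were nevertheless slightly alike in Pck1, with r = 0.171 between each liver and the next (permutation p = 0.00244), while G6pc had 0.110 (p = 0.051) and Cdkn1a 0.0724 (p = 0.202) over 100000 permutations. The median over all genes was 0.0896, and 24.1% of genes had a higher value than Pck1, so this likeness of neighbours was common in the data. Neighbouring numbers often lay in the same Eif2s3y set. The arrays of F2 170 to 179 were all Eif2s3y-high and those of F2 298 to 312 all Eif2s3y-low. Likeness of neighbours within each set was not computed. What else neighbouring numbers share, such as a litter or a day, is not known here.

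The first 5 principal components of all arrays held 25.3% of the variance of Pck1, 14.7% of that of G6pc and 33.6% of that of Cdkn1a, against 26.2% for the median gene. Of the 5, the second had the highest absolute r with each of the genes, 0.487 for Pck1, 0.272 for G6pc and 0.437 for Cdkn1a.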

How the data were processed

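Liver RNA of 311 F2 mice was measured on 2-colour arrays, each sample against a common pool. The deposited values are log ratios of the authors, taken here as log10, and their normalization is not stated here. Per the labels, the sample was in Cy3 and the pool in Cy5. Base and direction were read from the data, since a pool of all samples fixes how a probe's mean falls with its variance: that slope was -0.848 over kept probes, against -1.15 required by log10 of sample over pool, -0.347 by log2, -0.5 by natural log and 1.15 by the opposite direction. Of 48205 array pairs, 131 had r under -0.3 (lowest -0.437), and every array was kept in its deposited direction. The direction was taken from the negative slope, as the dyes alone do not give it. Array medians lay between -0.0218 and 0.0172, array SDs between 0.0658 and 0.206, and 0.745% of values were missing. Intensities were not used here, so the number of arrays sets the precision.

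Of 23388 probes, 13645 named 1 gene, 48 several and 9695 none in GEO's platform annotation; symbols were updated through RefSeq by Entrez ID (12653 probes), accession (4), symbol (214) or older symbol (93), and 681 stayed with the platform's own names, some of them in capitals. A probe was kept if it was measured on 95% of arrays or more (22863 probes), and genes were counted through the probe with fewest missing values.

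Every kept probe was fitted on the level of each gene with limma 3.58.1 in R 4.3.3 (lmFit and eBayes), with Benjamini-Hochberg adjustment over all kept probes at 0.05. Pairs were tested with 100000 two-sided permutations. Intervals of r use Fisher's transformation, and fold changes come from the slope of log ratios. The model was tested on simulated data. Title and source name disagree on the F2 number of 1 sample, where the title was followed.

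Named genes were, for each of the 3, the 10 with the highest and 6 with the lowest r over all arrays, the 5 highest and 3 lowest in each Eif2s3y set, the 6 differing most each way between Pck1 and G6pc, and in each list the 3 highest and 3 lowest. The 3 genes, the 28 lists and the tests were chosen with earlier results of these data known. Alternatives covered normalization, missing values, probe choice, subsets of arrays, covariates, ranks and thresholds.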

Additional observations from a re-analysis of the deposited data

How the results depend on the processing

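Pairs of the 3 genes were judged here by a permutation p under 0.05, which is not adjusted over probes. The r of Pck1 with G6pc kept its direction and its side of that threshold in all alternatives, between 0.408 and 0.671. The 10 highest and 6 lowest genes of each of the 3 were judged by the limma adjusted p. They were picked for extreme r on these same arrays, so keeping it is no independent support. Their r kept direction and side in 755 recomputations and not in 1. That was the r of F7 to Cdkn1a, which was -0.135 (limma adjusted p = 0.147) with 5 principal components removed. The r of Pck1 with Cdkn1a passed the permutation threshold on the values as deposited, though not the adjusted threshold over all probes. It missed the permutation threshold under quantile normalization (-0.0796), in F2 numbers up to the median (-0.0779) and without the 10 arrays of largest SD (-0.111). It also missed it with the Eif2s3y set as a covariate (-0.104), in Eif2s3y-high arrays (-0.130) and in Eif2s3y-low arrays (-0.0705). With 5 components removed it turned to 0.146, opposite in sign to and larger in size than the -0.121 that passed on the values as deposited. The r of G6pc with Cdkn1a was -0.0216 in F2 numbers up to the median, -0.0181 with the set as a covariate, -0.0218 in Eif2s3y-high and -0.0145 in Eif2s3y-low arrays. It passed the permutation threshold at 0.124 with 5 components removed. Trends along the F2 number changed sign for Pck1 in Eif2s3y-high (-0.00581) and for Cdkn1a in Eif2s3y-low arrays (-0.00277). The causes were not tested.

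Counts of followers of Pck1, G6pc, Cdkn1a and of unequal followers were 2768, 1693, 2972 and 2131 with probes measured on every array, where fewer genes are tested, and 1161, 1033, 744 and 221 with 5 components removed. With fewer arrays, Pck1 had 2334 in F2 numbers up to the median, 2466 above it and 2571 in Eif2s3y-low arrays. G6pc had 360 and 1520 on these sides of the median, 958 in Eif2s3y-high and 1130 in Eif2s3y-low arrays. Cdkn1a had 2362 in Eif2s3y-high and 2124 in Eif2s3y-low arrays. Unequal followers numbered 1023 and 1872 on these sides of the median, 923 in Eif2s3y-high and 918 in Eif2s3y-low arrays. At adjusted p under 0.01, G6pc had 1517 followers and 2016 were unequal. The spread as a multiple of the median gene was 2.81 for Pck1 and 3.13 for G6pc under quantile normalization, 2.85 and 3.16 by median absolute deviation, and 3.19 for G6pc in Eif2s3y-low arrays.

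No paired analysis was possible because all arrays form 1 group of single animals. Leaving out the array of highest Cdkn1a was chosen after seeing the data and gave 4618 followers of Cdkn1a and a spread of 2.47.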

Other observations

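Of 17 acute phase genes, 9 rose and none fell with Pck1 (median r 0.137), where 19.5% of all genes rose. The inhibitor chain Itih4 (0.310) and Crp (0.279) were highest. With G6pc 1 rose, where 11.1% of all genes rose. In the Eif2s3y-high arrays 3 rose and 1 fell with Pck1 (median 0.0416), where 13.8% of all genes rose, and in the Eif2s3y-low arrays 11 rose and none fell (median 0.234), where 10.9% rose. This difference between the sets was not tested. Of 15 genes of cholesterol synthesis 7 fell and none rose with G6pc, where 11.5% of all genes fell. Mvd (-0.234) and Sqle (-0.225) were lowest. Within the Eif2s3y-high arrays 1 of the 15 fell, where 4.29% of all genes fell. Within the Eif2s3y-low arrays 5 fell, where 5.92% of all genes did. With Pck1 1 rose and 4 fell, where 19.5% of all genes rose and 17.7% fell. Within the Eif2s3y-high arrays 1 rose and 2 fell with Pck1, where 13.8% of all genes rose and 14.3% fell. Within the Eif2s3y-low arrays 1 rose and 4 fell, where 10.9% of all genes rose and 11.6% fell. Of 18 genes of fat oxidation and ketone bodies, 6 rose and none fell with G6pc, where 11.1% of all genes rose. Angptl4 (0.452) and the carnitine enzyme Cpt2 (0.345) were highest. With Pck1, 5 of the 18 rose and 4 fell, where 19.5% of all genes rose and 17.7% fell. The fatty acid carrier Cd36 was lowest (-0.269). The split with Pck1 differed by set. In Eif2s3y-high arrays 5 rose and 1 fell, where 13.8% of all genes rose and 14.3% fell. In Eif2s3y-low arrays 1 rose and 4 fell, where 10.9% of all genes rose and 11.6% fell. The difference was not tested.

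Of 16 genes of the integrated stress response, 5 rose and 2 fell with Cdkn1a, near the 40.2% of all genes that followed it in either direction. By direction, 18.7% of all genes rose with Cdkn1a and 21.5% fell. The folate enzyme Mthfd2 (0.460) and the sestrin Sesn2 (0.336) were highest and the cysteine-forming Cth lowest (-0.401). Of 14 other inhibitors of the cell cycle, 5 rose and 5 fell with Cdkn1a over all arrays, where 18.7% of all genes rose and 21.5% fell. In Eif2s3y-high arrays 5 rose and 1 fell, and in Eif2s3y-low arrays 4 rose and 1 fell. The antiproliferative Btg2 had r = 0.453 over all arrays, and the kinase inhibitor Cdkn2d -0.279.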
